A study of Mus musculus with 20 samples.

Results

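The 44 genes described here are transcripts of the oocyte and the early embryo, measured in the hippocampus of aged mice. They were selected by name from the 33119 genes of the count table because transcripts restricted to oocytes were seen in some hAPOE4 males. Their levels in that group are therefore given as a description, with no test. All 44 genes were found in the table.

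Hippocampal RNA was sequenced from 20 mice aged 16 months, 5 in each of 4 groups. The groups were hAPOE3 males (M.APOE3, mice S154 to S158), hAPOE4 males (M.APOE4, S174 to S178), hAPOE3 females (F.APOE3, S144 to S148) and hAPOE4 females (F.APOE4, S164 to S168). All mice were C57BL/6 animals from Taconic, homozygous for a targeted replacement in which human APOE3 or APOE4 stands in place of mouse Apoe, so every group carried a human allele and none was wild type. The hippocampi were dissected after anaesthesia and perfusion with PBS, and the labels name no treatment.

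A growing oocyte stores messenger RNA for the egg and the first divisions of the embryo, since transcription stops before ovulation. The stored RNAs serve meiosis, the zona pellucida (the glycoprotein coat around the egg), secreted signals to the follicle, the subcortical maternal complex beneath the egg membrane, and the clearance of maternal RNA after fertilization. In the adult brain most of these genes are regarded as silent, while some have transcripts in other tissues.

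Counts are the authors' estimated read counts per gene, between 35778879 and 52520279 per mouse. CPM is counts scaled to library size (per 1e6 counts, TMM-normalized), and levels are compared between genes only as CPM per kb of exon. A gene is called detected in a mouse with over 3 counts. In this bulk tissue RNA, fewer cells of a type and less RNA per cell cannot be told apart. The neuronal list that checks the tissue label was detected in full, 11 of 11 genes in each mouse, with a summed level from 4799 to 8619 CPM.

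Within the hAPOE4 males the mice stood apart from each other. The 44 genes together reached 8.42 CPM in S174, 375 in S175, 207 in S176, 262 in S177 and 193 in S178. In the other 16 mice, S174 among them, the sum ran from 8.32 to 13.2 CPM. The 4 mice S175 to S178 thus lay above every other mouse, with no overlap, and S174 lay inside the range of the hAPOE3 males. The files do not tell where this RNA came from: the tissue of the mice, its handling and the preparation of the libraries cannot be told apart as its source.

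By group the sum was 10.4 ± 1.96 CPM (SD, n = 5) in hAPOE3 males, 10.2 ± 0.830 in hAPOE3 females, 9.95 ± 0.597 in hAPOE4 females and 209 ± 133 in hAPOE4 males. The mean of the hAPOE4 males was 259 CPM without S174 and 167.6 without S175, so no single value stands for that group. As a share of all counts the genes took 0.0368% in S175 (exact 95% binomial interval 0.0362% to 0.0374%), 0.0213% in S176, 0.0256% in S177, 0.0202% in S178 and 0.000806% in S174. Such intervals cover counting error only. Of the 44 genes, 41 were detected in S175, 40 in S176, 39 in S177 and 40 in S178, against 15 in S174 and 14 to 20 in the other 15 mice.

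**Figure D1:**
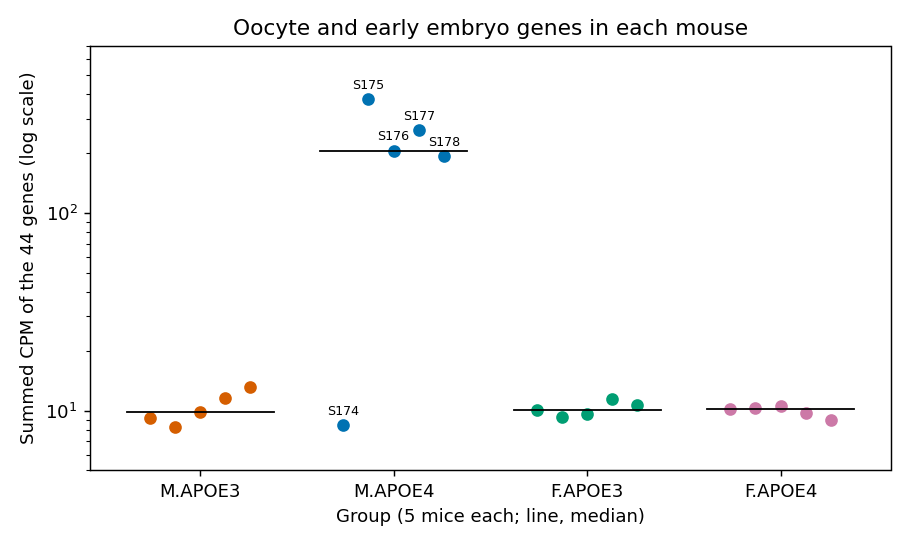
Summed CPM of the 44 oocyte and early embryo genes (log axis) in each mouse by group, with a line at the median of the 5 mice. S175, S176, S177 and S178 lie between 193 and 375 CPM, and the other 16 mice, S174 included, lie between 8.32 and 13.2 CPM.

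The mice S175 to S178 were the 4 highest of the 20 for 34 of the 44 genes. Over all genes of the table, 380 of 33119 (1.15%) had these same 4 mice on top. The list was chosen for this pattern, so the share among its members is no finding. By role, they were the 4 highest for 10 of 11 other oocyte-enriched genes, 4 of 4 secreted or surface proteins, 5 of 5 NLRP genes outside the subcortical complex, 3 of 3 genes of meiosis and survival, and 5 of 6 genes of maternal chromatin and RNA. The pattern was seen for 4 of 7 transcription factors, 2 of 5 members of the subcortical maternal complex and 1 of 3 zona pellucida genes. The 10 genes without it were Zp1, Zp2, Figla, Sohlh1, Lhx8, Ooep, Tle6, Khdc3, Oas1c and Pabpc1l.

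**Figure D2:**
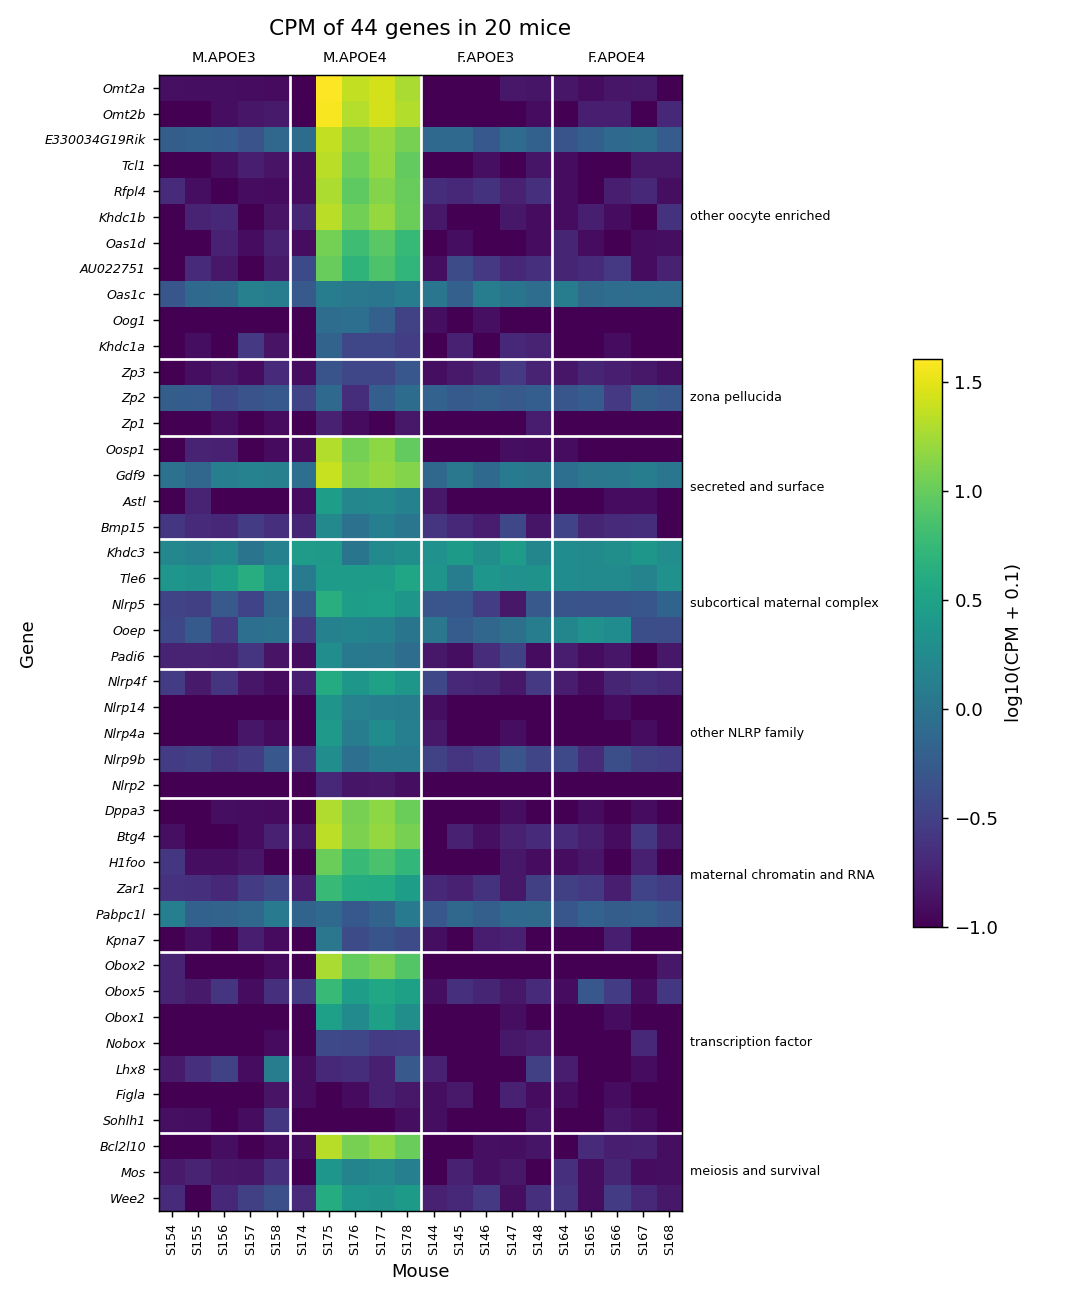
Colour shows log10(CPM + 0.1) for the 44 genes (rows, by role and then by level) in the 20 mice (columns, by group). In 34 rows the 4 brightest cells are S175 to S178, and S174 looks like the mice of the other groups.

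Promoters are printed for 4 genes that span the range of levels in hAPOE4 males: Omt2a and Oosp1 among the 4 highest per kb, Zp3 as the one zona gene with the pattern, and Figla, which stayed at 3 counts or fewer. Each runs from 250 bases before to 50 bases after the RefSeq start (GRCm38.p6), 5′ to 3′ along the gene. Capitals mark the E-box CANNTG, the element that the factor FIGLA is known to bind. The stretches lie at chr9:78313999-78314298 (Omt2a, minus strand), chr19:11691002-11691301 (Oosp1, minus), chr5:135979855-135980154 (Zp3, plus) and chr6:86016941-86017240 (Figla, plus).
Omt2a: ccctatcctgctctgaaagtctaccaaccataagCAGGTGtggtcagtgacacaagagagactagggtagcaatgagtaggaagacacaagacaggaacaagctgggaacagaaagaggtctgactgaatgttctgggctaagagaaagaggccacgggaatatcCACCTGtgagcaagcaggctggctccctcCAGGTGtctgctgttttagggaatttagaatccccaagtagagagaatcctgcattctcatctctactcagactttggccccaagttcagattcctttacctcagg
Oosp1: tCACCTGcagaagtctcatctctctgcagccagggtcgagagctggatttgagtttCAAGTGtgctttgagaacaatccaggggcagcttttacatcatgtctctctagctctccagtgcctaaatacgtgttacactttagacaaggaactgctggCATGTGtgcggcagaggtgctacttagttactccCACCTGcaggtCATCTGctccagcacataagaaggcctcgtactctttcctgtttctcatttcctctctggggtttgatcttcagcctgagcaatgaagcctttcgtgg
Zp3: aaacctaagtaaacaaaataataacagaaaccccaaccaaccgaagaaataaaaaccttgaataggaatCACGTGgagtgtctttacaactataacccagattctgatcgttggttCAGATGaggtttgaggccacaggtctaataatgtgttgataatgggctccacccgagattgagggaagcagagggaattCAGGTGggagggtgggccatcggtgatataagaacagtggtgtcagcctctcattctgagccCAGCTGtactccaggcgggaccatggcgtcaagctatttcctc
Figla: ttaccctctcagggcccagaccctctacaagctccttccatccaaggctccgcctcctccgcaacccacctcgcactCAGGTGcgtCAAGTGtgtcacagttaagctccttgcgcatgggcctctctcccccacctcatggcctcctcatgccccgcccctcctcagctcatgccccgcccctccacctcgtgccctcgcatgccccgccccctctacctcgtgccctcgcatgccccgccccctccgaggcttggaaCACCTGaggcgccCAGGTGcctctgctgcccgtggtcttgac

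The letters CANNTG occurred 3 times in the Omt2a promoter, 5 times in that of Oosp1 and 4 times each in those of Zp3 and Figla. RefSeq gave a promoter for 33 of the 44 genes, and 29 of the 33 held an E-box, against 72.1% of all 27025 promoters of the same length. The E-box reads the same on both strands, and the other motifs were searched on both. The element TAATTG, known for the factor NOBOX, was in 4 of 33 (Nlrp9b, Omt2b, Ooep and Padi6) against 8.15% of all promoters. The homeodomain core TAATTA, which shares all but its last letter with TAATTG, was in Bmp15 and Wee2 against 5.31% of all. The TATA box TATAAA was in Bmp15, Nlrp5, Nlrp9b and Rfpl4 against 14.2% of all. A match of letters is a description of these windows and not a site in use.

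The highest level per kb belonged to Omt2a, an oocyte maturation gene of chromosome 9. Its counts were 0 in S174, 1615 in S175, 1165 in S176, 1150 in S177 and 780 in S178, and at most 2 in any other mouse. Its neighbour in sequence, Omt2b, had 0, 1511, 1021, 1150 and 823 counts in the same order, and at most 4 elsewhere. The 4 mice did not overlap the rest for either gene. Against a floor of 3 counts in a single library, Omt2a was at least 222-fold higher in the lowest of S175 to S178 than in any other mouse. The paralogs share 31.4% of the 75-base windows of Omt2a and 29.6% of those of Omt2b, so the split of counts between them is uncertain.

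Other oocyte-enriched genes followed. E330034G19Rik had 33 counts in S174, 931 in S175, 636 in S176, 672 in S177 and 484 in S178, and at most 36 in the other mice, so it was never absent. Tcl1, a coactivator of the kinase AKT in eggs and early embryos, had 1, 867, 530, 653 and 391 counts against at most 3 elsewhere. Rfpl4, a RING finger protein of the oocyte, had 1, 764, 453, 558 and 411 against at most 6. All 3 separated S175 to S178 from the rest without overlap. Khdc1b (4, 856, 551, 653 and 433 counts), Oas1d (1, 458, 308, 362 and 226) and AU022751 (13, 399, 243, 317 and 211) did so as well. Low in the same mice were Oog1 (0, 30, 40, 22 and 9 counts), which shares 82.8% of its windows with Gm2042, and Khdc1a (0, 23, 13, 11 and 8), which shares 32.1% with Khdc1c. Oas1c went another way: it had 20, 47, 50, 40 and 48 counts in the hAPOE4 males and up to 63 in the other mice, so the groups overlapped.

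Among secreted and surface proteins the growth factor gene Gdf9, by which the oocyte signals to granulosa cells, had 36 counts in S174, 965 in S175, 661 in S176, 649 in S177 and 537 in S178. The protein-coding gene lies on chromosome 11 (53431023 to 53437904, GRCm38). The other mice had up to 69 counts, and the lowest of S175 to S178 was 9.88 times the highest of the rest in CPM. Bmp15, the related factor with which GDF9 acts, had 4, 64, 42, 52 and 39 counts against up to 11 elsewhere. Both stood clear of the other mice, but at unequal levels: per kb of exon, Gdf9 averaged 6.57 CPM and Bmp15 0.309 CPM in the 5 hAPOE4 males. Oosp1, an oocyte secreted protein, had 1, 814, 573, 611 and 391 counts against at most 3. Astl, the egg protease that cleaves a zona protein after fertilization, had 1, 111, 76, 66 and 54 against at most 3.

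The zona pellucida was the role least seen. Zp3, which encodes a structural protein of the coat, had 1 count in S174, 15 in S175, 13 in S176, 11 in S177 and 17 in S178, and up to 7 in the other mice. It kept the order of the mice only narrowly, with a ratio of 1.52 between the lowest of S175 to S178 and the highest of the rest. Zp2 had 11, 27, 6, 21 and 30 counts and between 8 and 24 in the hAPOE3 males and all females, so S176 had the lowest count of the 20. Zp1 had 0, 3, 1, 0 and 2 counts and never more than 3 in any mouse, which is within the limit of detection at this depth. Averaged over the 5 hAPOE4 males, Zp3 had 0.202 CPM per kb and Zp2 0.167, against 6.57 for Gdf9.

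The subcortical maternal complex is needed for the first cleavages. Nlrp5 (MATER) had 0.419 CPM in S174, 4.36 in S175, 2.81 in S176, 2.83 in S177 and 2.29 in S178 against up to 0.664 CPM elsewhere. In counts, Padi6, a peptidylarginine deiminase of the egg's cytoplasmic lattices, had 1, 72, 52, 42 and 31 against up to 9. These were the 2 members that set S175 to S178 apart. Ooep had 8, 52, 69, 55 and 38 counts, but up to 92 in other mice. Tle6 had 50, 103, 133, 108 and 135 against up to 191, and Khdc3 (FILIA) 119, 100, 46, 70 and 78 against up to 107 outside the hAPOE4 males. These 3 overlapped the other mice to unequal extents. Of the other 16 mice, 5 had more Ooep in CPM than the lowest of S175 to S178, 2 had more Tle6 and 15 had more Khdc3. In hAPOE3 males Ooep reached 0.830 CPM at most, below the 0.925 to 1.39 CPM of S175 to S178. The higher values were those of some females, but not of all. In the hAPOE4 females S164 to S168 Ooep had 1.46, 1.98, 1.74, 0.328 and 0.310 CPM. A list of choroid plexus genes summed to 6794, 8894.5, 9559, 938 and 279 CPM in the same mice. In S175 and S177 that list summed to 337 and 412 CPM, with Ooep at 1.30 and 1.31. The part of choroid plexus in the Ooep level was not tested. For Khdc3, 31.3% of the windows are shared with Gm20509.

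The other NLRP genes are relatives of Nlrp5 that are expressed in oocytes. Nlrp4f had 0.0662, 3.90, 2.31, 3.02 and 2.29 CPM in S174 to S178 and up to 0.267 CPM in the other mice. By counts, Nlrp4a had 0, 98, 59, 73 and 51, Nlrp14 0, 85, 66, 51 and 47, and Nlrp9b 7, 72, 40, 47 and 45. In the remaining mice these 3 reached at most 2, 1 and 22 counts, so S175 to S178 lay above all others for each of the 4 genes. Nlrp2 had 0, 4, 2, 2 and 1 counts and 0 in all 15 mice of the other groups, so only S175 passed the limit of detection.

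Genes that act on maternal chromatin and RNA ranged from the third highest level per kb, that of Dppa3, to some of the lowest. Dppa3 (Stella), which shields the maternal genome from demethylation, had 0 counts in S174, 789 in S175, 584 in S176, 609 in S177 and 432 in S178, and at most 1 elsewhere. It is a protein-coding gene of chromosome 6 (122626410 to 122630272, GRCm38). Btg4, the adaptor that brings maternal mRNA to the deadenylase, had 2, 879, 612, 647 and 477 against at most 7. H1foo, the linker histone of the oocyte, had 0, 412, 278, 302 and 216 against at most 6. In each of the 3 the groups of counts were far apart. Zar1, which binds stored mRNA, had 0.0662, 5.71, 3.999, 3.93 and 2.73 CPM against up to 0.258. Kpna7, an importin of the egg, had 0, 39, 15, 16 and 12 counts against up to 3. For Zar1, 20.7% of the windows are shared with Gm42668. Pabpc1l, the poly(A)-binding protein of the oocyte, did not separate the mice, with 27, 27, 21, 24 and 46 counts and up to 57 in the others.

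S175 to S178 were the 4 highest mice for Obox1, Obox2, Obox5 and Nobox among the transcription factors, and not for Figla, Sohlh1 and Lhx8. Obox2, an oocyte homeobox gene, had 0 counts in S174, 760 in S175, 482 in S176, 499 in S177 and 333 in S178, and at most 3 elsewhere. Obox5 had 0.176, 5.66, 2.73, 3.48 and 2.92 CPM against up to 0.409, and Obox1 0, 114, 84, 122 and 75 counts against up to 1. All 3 kept S175 to S178 clear of the rest, although Obox1 and Obox2 share 47.2% and 52.6% of their windows with each other. Nobox, which is required for early follicle growth, had 0, 11, 13, 8 and 8 counts against up to 4, or 0.0916 CPM per kb on average. Figla, the activator of the zona genes, had 1, 0, 1, 3 and 2 counts and at most 3 anywhere. Sohlh1 had 0, 0, 0, 0 and 1, below the 9 of the hAPOE3 male S158. Lhx8 had 1, 4, 6, 3 and 18 counts, while S158 had 62. S175 to S178 thus did not stand clear of the other mice for the last 3 of these factors. For Lhx8 their counts still lay above the median of 1 in the other 16 mice.

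Of the genes of meiosis and survival, Bcl2l10, a BCL2 family member of the ovary, had 1 count in S174, 845 in S175, 585 in S176, 609 in S177 and 420 in S178 against at most 5 elsewhere. Wee2, a kinase that holds the oocyte in meiotic arrest, had 5, 159, 113, 87 and 104 against up to 18. Mos, the kinase of arrest in the mature egg, had 0, 90, 70, 66 and 51 against up to 7. No mouse outside S175 to S178 reached their range.

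In CPM per kb, averaged over the 5 hAPOE4 males, the order was led by Omt2a (15.05), Omt2b (13.7), Dppa3 (12.7), Oosp1 (11.5) and Bcl2l10 (9.45). E330034G19Rik (7.08), Gdf9 (6.57), Tcl1 (6.23), Rfpl4 (6.01) and Obox2 (5.92) came next. Between mice the levels of neighbours overlapped, since Omt2a ran from 0 to 27.6 CPM per kb and Omt2b from 0 to 24.5. Within mice, the first 7 genes kept this order in each of S175 to S178, although the margin was small for some, with Omt2a 1.00 to 1.20 times Omt2b and Bcl2l10 1.30 to 1.38 times E330034G19Rik. From Gdf9 on, neighbours changed places between mice, with Gdf9 at 0.903 to 1.25 times Tcl1. At the low end were Lhx8 (0.0594), Figla (0.0388), Zp1 (0.0145), Nlrp2 (0.0121) and Sohlh1 (0.00378). With the median length of the annotated transcripts in place of the union of exons, 9 of the 10 highest stayed in the first 10, but their order changed. The first 5 were then Omt2a, Gdf9, Omt2b, Oosp1 and E330034G19Rik, while Dppa3 and Bcl2l10 fell out of the first 5. For Gdf9 the 2 lengths are 2031 and 429 bases, so its place rests on the length used.

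**Figure D3:**
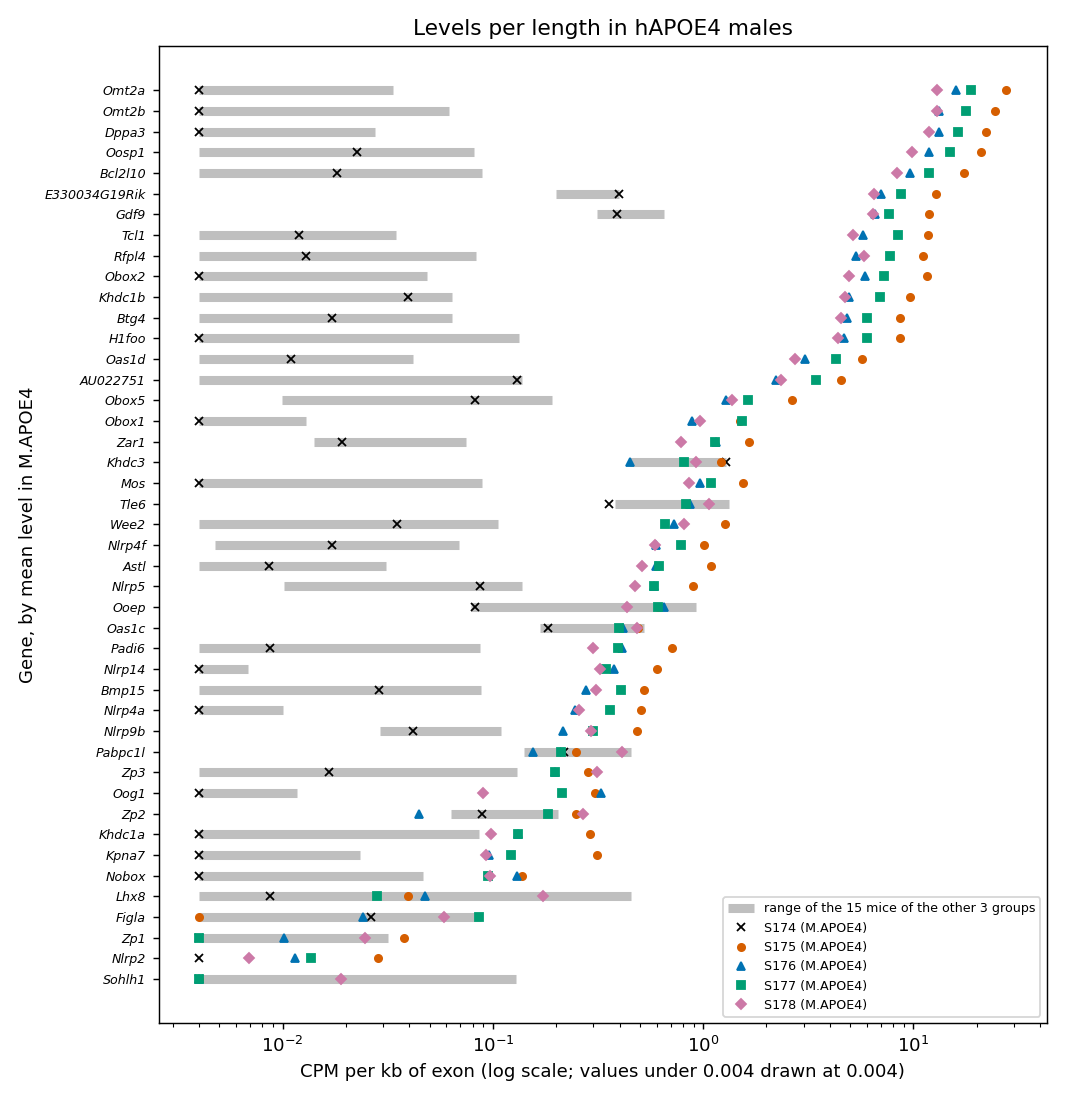
CPM per kb of exon (log axis) of the 44 genes in the 5 hAPOE4 males (symbols) and the range of the 15 mice of the other 3 groups (grey bars), ordered by the mean of the hAPOE4 males. From Omt2a (15.05) down to Obox1 the symbols of S175 to S178 lie to the right of the bars, S174 lies on or near them, and Khdc3, Tle6, Ooep, Oas1c, Pabpc1l, Zp2, Lhx8, Figla, Zp1 and Sohlh1 overlap them.

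The summed level differed between S175 to S178. The 5 most abundant genes of each mouse took 39.3%, 39.7%, 38.9% and 39.1% of the summed CPM in S175, S176, S177 and S178, and the 10 most abundant 67.2%, 67.1%, 67.3% and 65.4%. A fixed set of 24 genes was compared between the mice, those of the 34 whose median in the other 16 mice was at most 3 counts. Their summed level was 0.545 of that of S175 in S176, 0.701 in S177 and 0.492 in S178. For single genes the ratio to S175 had a median of 0.553 in S176 (range 0.309 to 1.07), 0.697 in S177 (0.390 to 1.02) and 0.488 in S178 (0.243 to 1.10). Genes with few counts, such as Nlrp2 and Oog1, say little here. The share of the sum varied least for H1foo, E330034G19Rik and Btg4, by 1.02, 1.02 and 1.03 times between the highest and the lowest mouse. It varied more for others, such as Wee2 (1.66 times), Obox1 (1.46), Zar1 (1.37) and Obox2 (1.21).

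**Figure D4:**
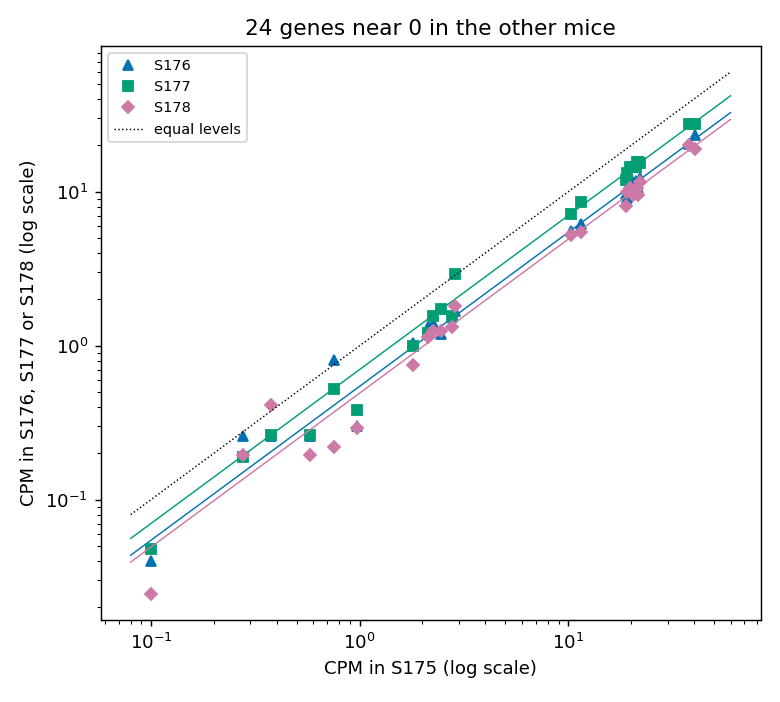
CPM of 24 genes in S176, S177 and S178 against CPM in S175 (both log axes), with a line for the pooled ratio of each mouse (0.545, 0.701 and 0.492) and a dotted line of equal levels. The points follow the lines over the whole range of levels and scatter most at the low end.

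Comparisons without hAPOE4 males were tested, since the choice of the genes did not rest on them. Only 16 of the 44 genes passed the filter on low counts with all 4 groups in the fit, and 9 passed with only the 2 groups of either comparison, so the other 7 were too low in the groups compared to bear on it. Between hAPOE4 and hAPOE3 females 0 of the 16 were past the threshold of 0.05 with edgeR's quasi-likelihood test, the smallest adjusted p being 0.753, and 0 had an unadjusted p under 0.05. With only these groups in the fit, 0 of 9 were called. Of all 21724 genes tested, 0.667% were called, and 2196 had an unadjusted p under 0.05. The log2 fold changes of the 16 ran from -0.81 to 1.04 with a median of -0.13, against 0.00 over all genes tested. DESeq2 likewise called 0 of the 44 genes, but those beyond the 9 were too low in females to bear on it.

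Between hAPOE3 females and hAPOE3 males, 0 of the 16 were called (smallest edgeR adjusted p = 0.805), and 9 of 21724 genes (0.0414%) in all. An unadjusted edgeR p under 0.05 was seen for 1 of the 16 and for 1134 of all 21724 genes tested. With only these groups in the fit, 0 of 9 were called by edgeR. The log2 fold changes ran from -0.67 to 1.72 with a median of -0.07, against 0.00 over all genes tested. DESeq2 called 0 of the 44, but those beyond the 9 were too low in these groups to bear on it. The summed levels of the females lay from 9.03 to 11.4 CPM, inside the range of the hAPOE3 males.

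Further oocyte genes from a list outside the 44 are given next. Of 57 listed genes 55 were in the table, and S175 to S178 were the 4 highest of the 20 mice for 29 of them. Over all genes the share was 1.15%. This list too was written with earlier results of these data known, so its share is a description. By mean CPM per kb in hAPOE4 males the first 5 were Cpeb1 (24.5), Kit (8.72), Trim61 (5.59), Tcl1b1 (5.05) and Ybx2 (3.79). Cpeb1, a regulator of polyadenylation, and Kit, a receptor tyrosine kinase, are also expressed in brain. Their counts in S174 to S178 were 5315, 4469, 3912, 4296 and 4261 for Cpeb1 and 4754, 4169, 1891, 3365 and 2520 for Kit, and neither was highest in S175 to S178. Trim61 had 0, 832, 554, 560 and 412 counts against at most 4 elsewhere, and Tcl1b1, a relative of Tcl1, 0, 379, 264, 298 and 179 against at most 2. Ybx2, an RNA-binding protein of germ cells, had 347, 286, 229, 232 and 444 counts and up to 369 in the other mice.

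Of the 23 genes of that list that passed the filter, 4 were higher in hAPOE4 than in hAPOE3 males with edgeR's quasi-likelihood test, where 135 of 21724 genes (0.621%) were called. These were Npm2, a histone chaperone of the egg (log2 fold change 2.80, SE 0.45, adjusted p = 0.00153), Fbxw19 (1.79, SE 0.34, adjusted p = 0.00943), Fbxw28 (2.25, SE 0.44, adjusted p = 0.0122) and Aurkc, a meiotic kinase (3.41, SE 0.70, adjusted p = 0.0190). The list was written with earlier results of these data known, so the count and the p-values are descriptions and lend no support. Aurkc had at most 9 counts in the other 16 mice and 69, 65, 68 and 51 in S175 to S178, so its test rests on the mice where it is high. Npm2 had 0.309 CPM in S174, 5.88 in S175, 3.16 in S176, 3.98 in S177 and 3.41 in S178, against at most 0.609 in the other 16 mice. Over these and the lists of other cells, the count of 4 fell to 2 without S175 and 0 in a fit of only the 2 groups. It was 24 without S174, 16 to 19 without any 1 hAPOE3 male, and 21 with DESeq2. Without S174 or an hAPOE3 male, 82 listed genes passed the filter in place of 65. Between the female genotypes 0 of the 23 were called with edgeR, and DESeq2 called 0. An unadjusted edgeR p under 0.05 was seen for 1 of the 23 and for 2196 of all 21724 genes tested.

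Markers of the cells around an oocyte, and of other tissues, were counted in the same way. S175 to S178 were the 4 highest mice for 1 of 14 granulosa and cumulus genes (Nr5a2), 1 of 10 theca and luteal genes (Hsd3b1), 0 of 7 oviduct genes, 0 of 13 testis and sperm genes, 0 of 4 genes of embryonic transcription at cleavage and 1 of 10 blastocyst genes (Tfap2c). Over all genes the share was 1.15%, so a count of 0 in lists this short says little. Some listed genes were not measured. Those measured were 14 of 15 granulosa and cumulus genes, 7 of 8 oviduct genes and 13 of 18 testis and sperm genes. Of the cleavage genes 4 of 14 were measured, and of the blastocyst genes 10 of 12, so most listed cleavage genes could not be assessed. Of the 42 genes of these 6 lists that passed the filter, 0 were past the threshold with edgeR between the male genotypes. Of all genes tested, 0.621% were called. With edgeR an unadjusted p under 0.05 was seen for 5 of the 42, and for 1968 of all 21724 genes tested. The count of 5 is therefore no result about these cells. Of the 5, Cyp19a1, Inhbb, Nr5a2 and Tfap2c were higher in hAPOE4 males, and Fst was lower. Their log2 fold changes were 1.10, 0.37, 1.44, 1.96 and -0.82. Hsd3b1 did not pass the filter and was not among the 42. DESeq2 called 1 gene, Hsd3b1, as did edgeR without the filter or without S174 or any 1 hAPOE3 male. Tfap2c was called by edgeR without S174, and Fst and Nr5a2 without S158. Hsd3b1, a steroid dehydrogenase, had 39, 29, 33 and 25 counts in S175 to S178 and at most 6 elsewhere. Of the granulosa markers, Foxl2 had 40, 35, 83, 37 and 57 counts in S174 to S178 and Amh 136, 93, 85, 78 and 84, so S174 was not lower than the others in Amh. Cyp19a1 went the other way, with 12, 42, 33, 27 and 24 counts, so S174 was the lowest hAPOE4 male. Mice outside S175 to S178 had up to 31 counts of it. Summed over the granulosa list, the range was 87.5 to 102 CPM in hAPOE4 males and 87.3 to 102 CPM in hAPOE3 males.

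**Figure D5:**
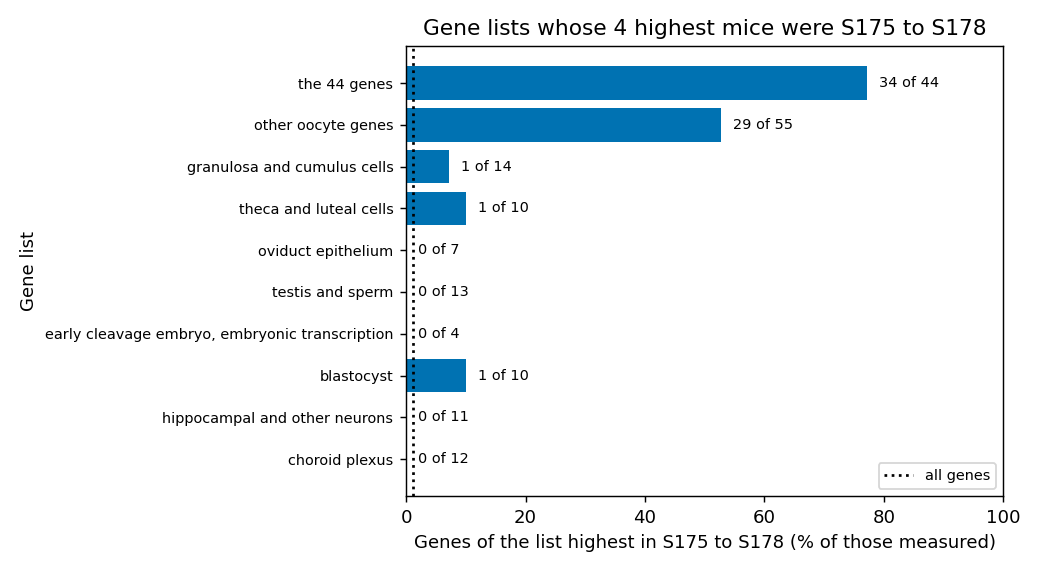
Percent of the genes of each list for which S175 to S178 were the 4 highest of the 20 mice, with the counts beside the bars and a dotted line at the share of all genes (1.15%). The 44 genes (34 of 44) were chosen for this pattern. The other oocyte genes show it for 29 of 55, and that list was written with earlier results of these data known.

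Beside the oocyte transcripts, Xist, the RNA of X inactivation, had 7.50 CPM in S174, 28.4 in S175, 23.4 in S176, 22.9 in S177 and 19.3 in S178. It ran from 3.95 to 6.79 CPM in hAPOE3 males and from 654 to 987 CPM in females. All 5 hAPOE4 males expressed the Y-linked Ddx3y, from 47.1 to 67.3 CPM, and hAPOE3 males from 49.7 to 70.6. The choroid plexus list summed to 315, 337, 4319, 412 and 1148 CPM in S174 to S178, and the neuronal list to 8619, 7759, 4952, 7557 and 6193, so neither followed the oocyte genes across the 5 mice. The part of Xist, and of any other RNA, in the result was not tested.

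The genes outside the oocyte lists whose CPM over the 20 mice was most like the summed level of the 44 were ranked by cosine similarity. The first 15 were C86187 (0.999), D6Ertd527e, Gm1965, Gm10800, 4933427D06Rik, C87499, Gm839, Gm10801, Accsl, Gm2033, Bhlhe41, Sall4, Mbl2, Gm26870 and Klf17 (0.992). Among the 18138 genes with at least 1 CPM in some mouse, 98 had a cosine of at least 0.95. They held 28 of the 34 members that reached 1 CPM, which form part of the sum themselves, and 15 of the 30 other oocyte genes that did.
Bhlhe41, a transcriptional repressor with a level in every mouse, was the most abundant of the 15, with 54.8 CPM in S174, 944 in S175, 566 in S176, 671 in S177 and 452 in S178. In the other 16 mice it lay between 49.1 and 72.2 CPM. Sall4, a stem cell zinc finger factor, had 0.772, 11.4, 6.11, 7.10 and 5.50 CPM. Klf17, a factor of germ cells, had 0.0441, 1.20, 0.663, 0.952 and 0.463 CPM. Each had its 4 highest values in S175 to S178, which the measure of likeness itself selects.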

How the data were processed

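The authors made polyA libraries, sequenced paired-end reads of 75 bases, quantified mouse transcripts with Salmon 0.91, and used tximport to add transcripts up to genes. The values deposited are these estimated counts, whole numbers that were not normalized. A second deposited table holds a signal, counts that the authors normalized with DESeq2, and served only as an alternative. All columns were matched to mice by name, and 0 were left out. Counting may split reads between paralogs.

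The test was that of edgeR 4.0.16, run in R 4.3.3 (TMM, filterByExpr, which kept 21724 of 33119 genes, glmQLFit and glmQLFTest, one mean per group, Benjamini-Hochberg adjustment over all genes tested, threshold 0.05). DESeq2 1.42.0 was an alternative. Depth ran from 35778879 to 52520279 counts per mouse. CPM values used TMM factors. Levels per kb used the union of exons of the GRCm38 annotation, which matched 31059 genes. Shared windows were counted on that annotation's transcripts, and binomial intervals and cosines were computed with scipy 1.17.1. Scripts were checked on simulated data.

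The members, lists and rules were chosen with earlier results of these data known. Named in full were the 10 genes with the highest CPM per kb in hAPOE4 males, genes of every role, genes never over 3 counts and the 5 highest other oocyte genes, with the 15 genes of highest cosine, genes called in the other lists and defining markers. In addition, Bmp15 and the other members were given after their values were seen, as were Hsd3b1, Nr5a2, Tfap2c, Cyp19a1, Inhbb and Fst. Nothing in the labels says that the mice of a group share a litter or a batch.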

Additional observations from a re-analysis of the deposited data

Results flagged for a closer look

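The gap of the highest or lowest mouse to its nearest neighbour, divided by the range of its group, passed the 95% critical value of Dixon's test in 5 of 53 groups of 5 mice with a gene above the limit of detection. Chance flags about 1 in 20 groups. The values concern single mice outside the hAPOE4 males. Rfpl4 was 0.107 CPM in the hAPOE3 male S154, with the next mouse at 0.0263. In counts these were 4 and 1, close to the limit of detection. Zp2 was 0.172 CPM in the hAPOE4 female S166, with the next at 0.402. Nlrp5 was 0.597 CPM in the hAPOE4 female S168, with the next at 0.398. Tle6 was 1.182 CPM in the hAPOE3 female S145, with the next at 1.98. Khdc3 was 2.30 CPM in the hAPOE4 female S167, with the next at 1.83. None of the 5 reached the levels that Omt2a or Gdf9 had in S175 to S178.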

How the results depend on the processing

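Called members numbered 0 in females (hAPOE4 against hAPOE3) and 0 between the hAPOE3 sexes. Both stayed at 0 with DESeq2, with its size factors and without the filter. They also did so in a fit of only the 2 groups and with each mouse of the groups compared left out. Members tested were 44 without the filter, 36 with a mouse left out and 9 with only the 2 groups. Members beyond the 9 were too low in the groups compared to bear on it. The number of genes of the other lists called between the male genotypes was 4. It was 20 without the filter, 0 in a fit with only the 2 groups compared and 21 with DESeq2. With single mice left out it ran from 2 (without S175) to 24 (without S174). Without an hAPOE3 male it was 16 to 19. Without S174 or an hAPOE3 male the smallest group held 4 mice, and 82 in place of 65 listed genes passed the filter. The cause of the other changes was not tested. Members detected depended on the floor: in hAPOE3 males the median was 16, but 30 at 1 count and 8 at 10 counts or more. In hAPOE3 females 15 became 28 at 1 count, and in hAPOE4 females 16 became 29 at 1 count and 10 at 10 counts. Leaving out single mice gave a mean summed level of the hAPOE4 males of 167.6 to 259 CPM. By Spearman rank in place of the cosine, 2 of the 15 most similar genes were shared. Low counts limit Zp1, Nlrp2 and Figla. No paired analysis was possible because the replicate numbers follow the order of the samples and pair no mice.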
